A study of Mus musculus with 8 samples.

Results

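Stem and progenitor cells of the bone marrow find and keep their place in the niche through a small set of surface receptors and secreted factors, and 9 of their genes are described here: *Cxcr4*, *Vcam1*, *Selp*, *Selplg*, *Cd44*, *Icam1*, *Jam3*, *Robo4* and *Angpt1*. They were chosen by name, and each matched 1 of the 54532 genes in the deposited count table. CXCR4, the receptor for the chemokine CXCL12, holds stem cells in the marrow. P-selectin (*Selp*) on endothelium and platelets lets cells that carry its ligand PSGL-1 (*Selplg*) roll. VCAM-1 and ICAM-1 are ligands of integrins, CD44 binds hyaluronan, and JAM-C (*Jam3*) pairs with JAM-B. ROBO4 is a guidance receptor of endothelium and stem cells, and angiopoietin-1 (*Angpt1*) activates the receptor TIE2.

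RNA-Seq was performed on LSK cells (lineage-negative, c-Kit+, Sca-1+), the bone marrow gate that holds stem and multipotent progenitor cells, from C57BL/6 mice aged 8 to 12 weeks. All mice were *Zeb1* fl/fl;*Mx1-Cre* and had been given pIpC, an inducer of interferon that switches on *Mx1-Cre*, with the last dose 14 days earlier. LSK cells were sorted by the surface protein EpCAM into 4 *Zeb1*-/- EpCAM+ and 4 *Zeb1*-/- EpCAM- samples. *Zeb1*, which encodes a transcription factor that represses epithelial genes, was thus targeted in both fractions, and the comparison holds no *Zeb1*-intact mice. *Mx1-Cre* is active in many tissues that respond to interferon, the cells that surround blood cells among them, so the deletion need not be limited to the sorted cells. The labels count 4 mice. The sources used here do not state whether an EpCAM+ and an EpCAM- sample with the same number came from the same mouse.

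Gene counts summed to 15225714 to 17073546 in the EpCAM+ libraries and to 14114491 to 15929923 in the EpCAM- libraries. *Epcam*, the gene of the sorting marker, had 187 ± 32.7 CPM (counts scaled to a common library size; SD, n = 4) in EpCAM+ and 3.86 ± 3.61 CPM (SD, n = 4) in EpCAM- samples. *Zeb1* reads were present in both, at 19.5 ± 3.75 and 11.9 ± 2.14 CPM (SD, n = 4 each). *Zeb1* was called higher in EpCAM+ samples (log2 fold change 0.72, SE 0.17, adjusted p = 0.00798, edgeR's quasi-likelihood test). A count over the whole gene does not show whether the allele was deleted. The markers of the sort were detected in every library, *Kit* with at least 2096 and *Ly6a* (Sca-1) with at least 214 counts. The fractions differed in other cell markers. Of 12 genes of stem and multipotent progenitor cells, 10 were higher in EpCAM+ samples, where the summed level of the list was 2935 to 3208 CPM against 1535 to 2353 CPM. Of 7 tested erythroid genes, 6 were lower, with sums of 31.3 to 75.0 CPM against 481 to 1129 CPM. Marker sums were higher in every EpCAM+ than in every EpCAM- library for plasma cells (216 to 3629 against 4.27 to 11.6 CPM), dendritic cells (407 to 759 against 251 to 396 CPM) and T cells (54.3 to 67.5 against 17.4 to 29.5 CPM, with *Cd3e* at 0 or 1 count). The sums overlapped for B cells (72.5 to 122 and 46.5 to 78.9 CPM), although 2 of the 3 tested B cell genes were higher and none lower. They also overlapped for neutrophils (79.8 to 148 and 47.4 to 201 CPM), where 1 of 6 tested genes was lower and none higher. Those of lineage antibody targets were apart (173 to 248 against 122 to 170 CPM). Of the 6 lineage genes 3 were tested, and the list includes *Ptprc*, whose gene count does not separate the B220 form that the antibody binds. *Flt3* is on both the dendritic list and that of stem and multipotent progenitor cells. The reads are from bulk samples, in which fewer cells of a type and less RNA per cell cannot be told apart.

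*Icam1*, *Robo4* and *Angpt1* were higher in *Zeb1*-/- EpCAM+ than in *Zeb1*-/- EpCAM- LSK cells, and none of the 8 tested genes was called lower. Of 8 members with enough reads for a test, 3 were called higher and 5 were not called, with edgeR's quasi-likelihood test and a Benjamini-Hochberg adjusted p under 0.05 over the 13560 genes tested. Differences between the fractions were frequent among all tested genes: 42.6% were called, 21.8% as higher and 20.8% as lower in EpCAM+ samples. The share of members called, 37.5%, was near this background, and the median log2 fold change of the 8 tested members was 0.10 against 0.02 for all tested genes. The EpCAM+ values lay above every EpCAM- value for 3 members, which compares with 20.1% of all tested genes. *Jam3* did not pass the filter on low counts.

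**Figure D1:**
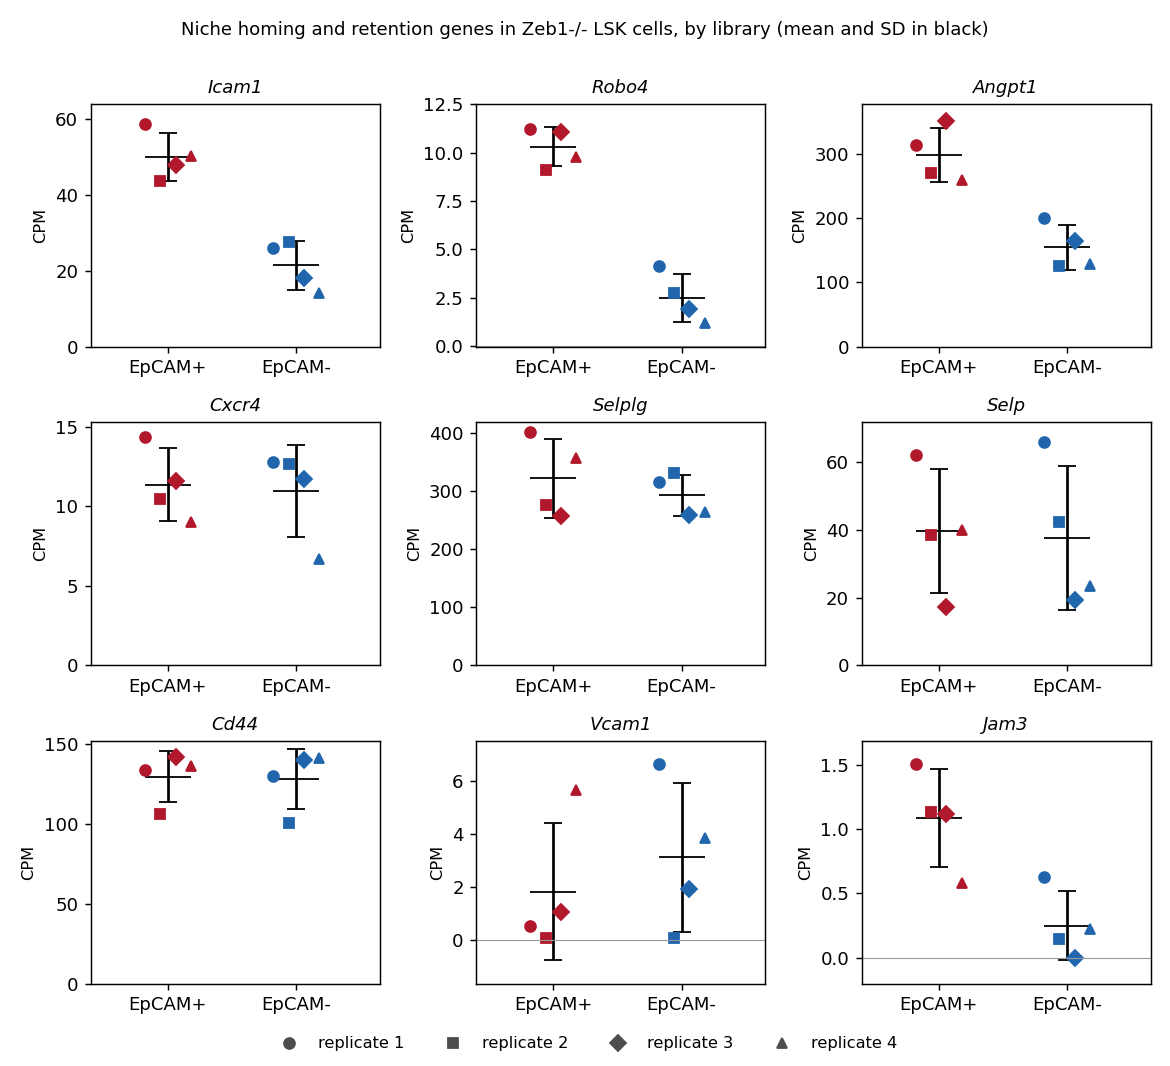
CPM of each gene in the 4 EpCAM+ (red) and 4 EpCAM- (blue) libraries, with the marker shape giving the replicate number and the mean and SD in black; each panel has its own linear axis. The fractions do not overlap for *Icam1*, *Robo4* and *Angpt1* and overlap for the other 6 genes.

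*Icam1* (ENSMUSG00000037405, GRCm38.p6 chromosome 9, 21015985 to 21028817, plus strand) encodes ICAM-1, the ligand of the leukocyte integrins LFA-1 and MAC-1. It had 58.7, 43.8, 47.8 and 50.2 CPM in EpCAM+ replicates 1 to 4 and 26.0, 27.5, 18.2 and 14.0 CPM in EpCAM- replicates 1 to 4. All EpCAM+ libraries were above all EpCAM- libraries, and the spread within each fraction was smaller than the gap between the means, 50.1 ± 6.31 and 21.5 ± 6.41 CPM (SD, n = 4 each). The level was 2.33-fold higher in EpCAM+ samples (95% interval 1.73 to 3.15; log2 fold change 1.22, SE 0.19, adjusted p = 0.00103). A larger log2 fold change was found for 7.47% of the tested genes. The marker sum of dendritic cells, which can carry ICAM-1, moved with the fraction as given above, and its part in the *Icam1* difference was not tested. Within the EpCAM+ fraction, replicate 2 had the lowest *Icam1* and the lowest dendritic sum (407 CPM), while replicate 4 had the highest dendritic sum (759 CPM) and replicate 1 the highest *Icam1*.

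*Robo4* (ENSMUSG00000032125, chromosome 9, 37401897 to 37415115, plus strand), the Roundabout receptor of vascular and stem cells, had the largest fold change of the tested members. It had 11.2, 9.13, 11.1 and 9.79 CPM in EpCAM+ replicates 1 to 4 against 4.12, 2.74, 1.91 and 1.18 CPM in EpCAM- replicates 1 to 4. The EpCAM+ libraries lay within 1.23-fold of each other and the EpCAM- libraries within 3.50-fold. The level was 4.11-fold higher in EpCAM+ samples (95% interval 2.56 to 6.59; 10.3 ± 1.02 against 2.49 ± 1.26 CPM, SD, n = 4 each). The log2 fold change was 2.04 (SE 0.31, adjusted p = 0.000805), exceeded by 2.91% of the tested genes. Among the EpCAM- libraries the order of *Robo4* was that of *Epcam*, which had 8.99, 3.77, 1.43 and 1.25 CPM in replicates 1 to 4. The erythroid sum was 483 and 481 CPM in EpCAM- replicates 1 and 2 and 952 and 1129 CPM in replicates 3 and 4, where *Robo4* and *Icam1* were lowest. The part of these shifts in the 2 differences was not tested. *Robo3*, on the opposite strand, ends 553 bases from *Robo4* and had 23 to 88 counts, against 16 to 198 for *Robo4*.

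*Angpt1* (ENSMUSG00000022309, chromosome 15, 42424723 to 42676977, minus strand) encodes the secreted ligand of TIE2 and was abundant in both fractions. Its level was 314, 270, 351 and 259 CPM in EpCAM+ replicates 1 to 4 and 200, 126, 165 and 128 CPM in EpCAM- replicates 1 to 4. The lowest EpCAM+ library thus stood above the highest EpCAM- library, and each EpCAM+ library was 1.57 to 2.14 times its EpCAM- counterpart of the same number. With means of 299 ± 42.1 and 155 ± 34.9 CPM (SD, n = 4 each), the level was 1.93-fold higher (95% interval 1.52 to 2.45; log2 fold change 0.95, SE 0.16, adjusted p = 0.00119). A noncoding gene on the other strand, *Gm17473*, overlaps *Angpt1* and had 11 to 50 counts against at least 1704 for *Angpt1*. The rise of *Angpt1* went with that of the stem and multipotent progenitor markers, whose sums are given above. EpCAM- replicate 1 had both the highest *Angpt1* and the highest marker sum (2353 CPM) of its fraction, but EpCAM- replicate 2, with the lowest *Angpt1*, had nearly the same sum (2345 CPM), and the part of the marker shift in the *Angpt1* difference was not tested.

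**Figure D2:**
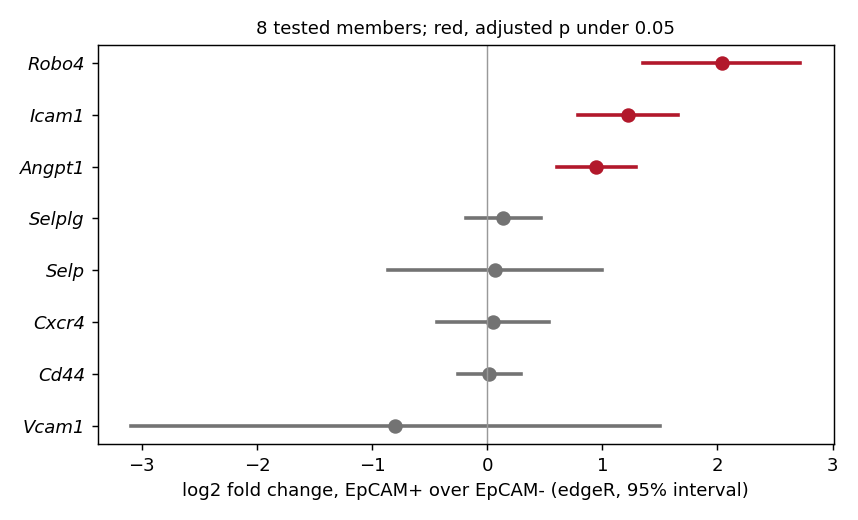
Fitted log2 fold change (EpCAM+ over EpCAM-) of the 8 tested members with its 95% interval; red marks an adjusted p under 0.05. *Robo4* (2.04), *Icam1* (1.22) and *Angpt1* (0.95) have intervals above 0, and the interval of *Vcam1* spans -3.09 to 1.50.

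Promoter sequence before the transcription start is shown for *Icam1* and *Robo4*, which rose, and for *Selp*, which was not called, since ZEB1 binds E-box sequences and both fractions came from mice in which *Zeb1* was targeted. The sequences are from RefSeq on GRCm38.p6 and are written 5′ to 3′ on the gene's strand, which is plus for all 3, and no annotated gene overlaps the stretches. Capitals mark the E-box word CAGGTG on either strand (CACCTG is its reverse complement).
*Icam1*, chr9:21015690-21015939: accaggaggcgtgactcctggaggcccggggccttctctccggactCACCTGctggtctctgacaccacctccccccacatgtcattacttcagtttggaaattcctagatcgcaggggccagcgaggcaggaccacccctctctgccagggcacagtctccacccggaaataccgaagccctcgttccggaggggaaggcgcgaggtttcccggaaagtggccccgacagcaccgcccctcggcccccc
*Robo4*, chr9:37401722-37401896: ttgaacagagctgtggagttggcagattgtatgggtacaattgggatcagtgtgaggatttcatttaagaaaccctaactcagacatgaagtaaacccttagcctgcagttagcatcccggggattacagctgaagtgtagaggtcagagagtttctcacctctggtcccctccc
*Selp*, chr1:164115014-164115263: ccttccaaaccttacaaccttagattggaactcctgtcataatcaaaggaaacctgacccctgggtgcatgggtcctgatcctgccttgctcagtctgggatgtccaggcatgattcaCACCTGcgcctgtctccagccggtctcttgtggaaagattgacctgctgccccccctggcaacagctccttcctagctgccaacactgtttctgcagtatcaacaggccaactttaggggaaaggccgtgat

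RefSeq windows of 250 bases before and 50 bases after the start were held for 5 members. CAGGTG was found once in *Icam1*, 204 bases before the start, and once in *Selp*, 132 bases before it, and 20.2% of 32851 windows of the same length hold this word. CAGGTA was found once, in *Cxcr4*, 20 bases after the start, and is in 12% of all windows. Neither word was in the windows of *Robo4* or *Cd44*, and 29.5% of all windows hold at least 1 of them. The words thus occurred both in a member that rose and in members that were not called.

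*Cxcr4* (ENSMUSG00000045382, chromosome 1, 128588199 to 128592293, minus strand), the chemokine receptor of marrow retention, had 14.4, 10.5, 11.6 and 9.01 CPM in EpCAM+ replicates 1 to 4 and 12.8, 12.7, 11.7 and 6.69 CPM in EpCAM- replicates 1 to 4. The fractions overlapped, with 11.4 ± 2.27 and 10.97 ± 2.89 CPM (SD, n = 4 each), and replicate 4 was the lowest library of each. The log2 fold change was 0.05 (SE 0.22, adjusted p = 0.868), and its 95% interval ran from 0.741-fold to 1.45-fold. *Cd44* (ENSMUSG00000005087, chromosome 2, 102811141 to 102901665, minus strand), the hyaluronan receptor, was the most even of the members. It had 134, 106, 142 and 136 CPM in EpCAM+ replicates 1 to 4 and 130, 101, 140 and 141 CPM in EpCAM- replicates 1 to 4. Replicate 2 was the lowest in both fractions, and the interval of the difference was 0.839-fold to 1.22-fold (log2 fold change 0.02, SE 0.12, adjusted p = 0.917). Counts per gene do not separate the splice forms of *Cd44*.

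*Selplg* (ENSMUSG00000048163, chromosome 5, 113818536 to 113832644, minus strand), which encodes the selectin ligand PSGL-1, had 400, 275, 256 and 356 CPM in EpCAM+ replicates 1 to 4 and 315, 330, 259 and 264 CPM in EpCAM- replicates 1 to 4. The values overlapped, and the difference had an interval of 0.881-fold to 1.38-fold (log2 fold change 0.14, SE 0.15, adjusted p = 0.459). *Selp* (ENSMUSG00000026580, chromosome 1, 164115264 to 164150026, plus strand), which encodes P-selectin, had 62.2, 38.6, 17.3 and 40.1 CPM in EpCAM+ replicates 1 to 4 and 65.9, 42.3, 19.3 and 23.3 CPM in EpCAM- replicates 1 to 4. Replicate 1 was the highest and replicate 3 the lowest library of each fraction. The libraries of 1 fraction spanned 3.59-fold (EpCAM+) and 3.41-fold (EpCAM-), whereas the EpCAM+ library stood at 0.944, 0.914, 0.897 and 1.72 times the EpCAM- library of replicates 1, 2, 3 and 4. The difference between the fractions was not called (log2 fold change 0.07, SE 0.42, adjusted p = 0.914), with an interval of 0.549-fold to 1.99-fold. The SD of *Selp* within fractions was 0.79 on the log2 CPM scale, against a median of 0.19 over all tested genes, and 4.03% of them had a larger one. Megakaryocytes and platelets also carry P-selectin. Their marker sum was 157, 216, 316 and 411 CPM in EpCAM+ replicates 1 to 4 and 235, 113, 309 and 354 CPM in EpCAM- replicates 1 to 4. Within the EpCAM+ fraction it was lowest in replicate 1, the highest for *Selp*, and within the EpCAM- fraction lowest in replicate 2. The part of these cells in the *Selp* counts was not tested. Of 7 tested genes of that list, 1 was higher in EpCAM+ samples.

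**Figure D3:**
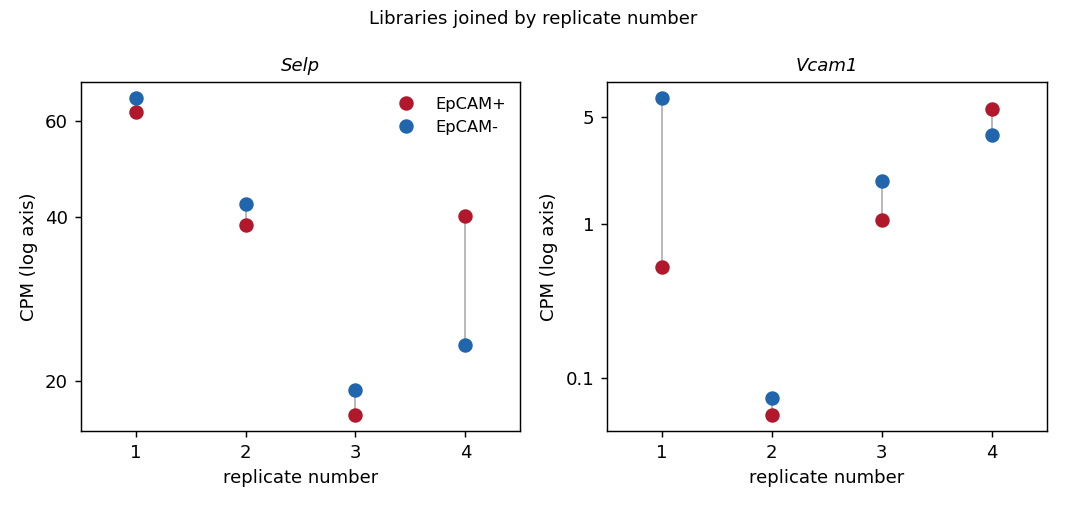
CPM (log axis) of *Selp* and *Vcam1* by replicate number, EpCAM+ in red and EpCAM- in blue, with a grey line joining the libraries of a number. *Selp* is highest in replicate 1 and lowest in replicate 3 of both fractions, and *Vcam1* is lowest in replicate 2 of both.

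*Vcam1* (ENSMUSG00000027962, chromosome 3, 116109949 to 116129688, minus strand), which encodes the ligand of the integrin VLA-4, had few and uneven reads. There were 8, 1, 19 and 87 counts in EpCAM+ replicates 1 to 4 and 106, 1, 28 and 52 counts in EpCAM- replicates 1 to 4, or 0.523, 0.0567, 1.06 and 5.64 CPM and 6.62, 0.0740, 1.91 and 3.82 CPM. The ranges coincided almost fully, and replicate 2 was the lowest in both fractions. The log2 fold change was -0.80 (SE 1.04, adjusted p = 0.557), with an interval of 0.117-fold to 2.83-fold, and it was -2.50 (adjusted p = 0.0866) without EpCAM+ replicate 4 and -0.11 (adjusted p = 0.946) without EpCAM- replicate 1. At 2.14, the within-fraction SD on the log2 CPM scale was larger than that of nearly all tested genes (0.0147% had a larger one). Macrophages and marrow stroma carry VCAM-1, and the sums of their markers spanned a narrower range over the libraries than *Vcam1* did. The summed macrophage list gave 123, 73.4, 73.9 and 119.6 CPM in EpCAM+ replicates 1 to 4 and 119, 115, 97.7 and 96.1 CPM in EpCAM- replicates 1 to 4. The sum was lowest in replicate 2 of the EpCAM+ fraction and in replicate 4 of the EpCAM- fraction. *C1qb*, named after its values were seen, had 13, 3, 15 and 72 counts in EpCAM+ replicates 1 to 4 and 12, 4, 14 and 58 counts in EpCAM- replicates 1 to 4, lowest in replicate 2 and highest in replicate 4 of each fraction. *Adgre1* had 1, 1, 2 and 14 counts and 39, 8, 24 and 23 counts. *Siglec1* was at 0 or 1 count, and 2 of the 8 tested genes of the list were lower in EpCAM+ samples. The stromal list summed to 20.4 to 26.3 CPM and 23.1 to 32.3 CPM, nearly all of it *Pdgfrb*, and *Col1a1* and *Col3a1* were at 0 in every library. EpCAM- replicate 4 was the only library with reads of *Lepr* (7), *Dcn* (4) and *Lum* (2). The part of these cells in the *Vcam1* counts was not tested.

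*Jam3* (ENSMUSG00000031990, chromosome 9, 27097384 to 27155421, minus strand), which encodes JAM-C, had 23, 20, 20 and 9 counts in EpCAM+ replicates 1 to 4 and 10, 2, 0 and 3 counts in EpCAM- replicates 1 to 4. The EpCAM+ library had more in all 4 pairs of the same number, but EpCAM- replicate 1 (0.624 CPM) overlapped with EpCAM+ replicate 4 (0.584 CPM). Means were 1.08 ± 0.379 and 0.248 ± 0.267 CPM (SD, n = 4 each), and 3 of the EpCAM- libraries were at or below the 3 counts (0.205 CPM in replicate 3) that an observed count of 0 still allows. An exact two-sided permutation test on log2 CPM gave p = 0.0571, where 4 against 4 allow no p under 0.0286. The call depended on the filter: fitted without it, edgeR gave a log2 fold change of 2.04 (adjusted p = 0.0364) and DESeq2 2.08 (adjusted p = 0.0162). Without EpCAM- replicate 1 the gene passed the usual filter and its log2 fold change was 3.08 (adjusted p = 0.00602). It also passed without EpCAM- replicate 2 (1.87, adjusted p = 0.0668), EpCAM- replicate 3 (1.64, adjusted p = 0.0446), EpCAM- replicate 4 (1.99, adjusted p = 0.0631) and EpCAM+ replicate 4 (2.25, adjusted p = 0.0257).

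Levels of different genes were compared as CPM per kilobase of the length column of the deposited table. In EpCAM+ libraries *Selplg* was the highest (75.3 ± 15.9 CPM per kilobase, SD, n = 4), followed by *Angpt1* (57.4 ± 8.08), *Cd44* (19.1 ± 2.36), *Icam1* (11.5 ± 1.45), *Selp* (8.97 ± 4.16), *Cxcr4* (6.29 ± 1.26), *Robo4* (1.94 ± 0.192), *Jam3* (0.339 ± 0.118) and *Vcam1* (0.205 ± 0.291). The ranges of *Selplg* and *Angpt1*, of *Icam1* and *Selp*, of *Selp* and *Cxcr4*, and of *Jam3* and *Vcam1* overlapped. In EpCAM- libraries *Angpt1* (29.7 ± 6.71) no longer overlapped with *Selplg* (68.3 ± 8.40), and *Icam1* (4.92 ± 1.47) stood after *Cd44* (18.9 ± 2.77), *Selp* (8.54 ± 4.83) and *Cxcr4* (6.07 ± 1.60), with a range that overlapped those of *Selp* and *Cxcr4*. The ranges of *Cd44* and *Selp* also met there. *Robo4* (0.469 ± 0.238), *Vcam1* (0.350 ± 0.315) and *Jam3* (0.0776 ± 0.0834) were the lowest, and the range of *Vcam1* overlapped both of the others. The FPKM columns of the table imply shorter lengths (the length column was 2.25 times as long in the median of tested genes). With those lengths *Selp* (28.8) was above *Icam1* (21.2) in EpCAM+ libraries, *Icam1* (9.06) above *Cxcr4* (8.11) and *Vcam1* (1.15) above *Robo4* (0.749) in EpCAM- libraries.

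**Figure D4:**
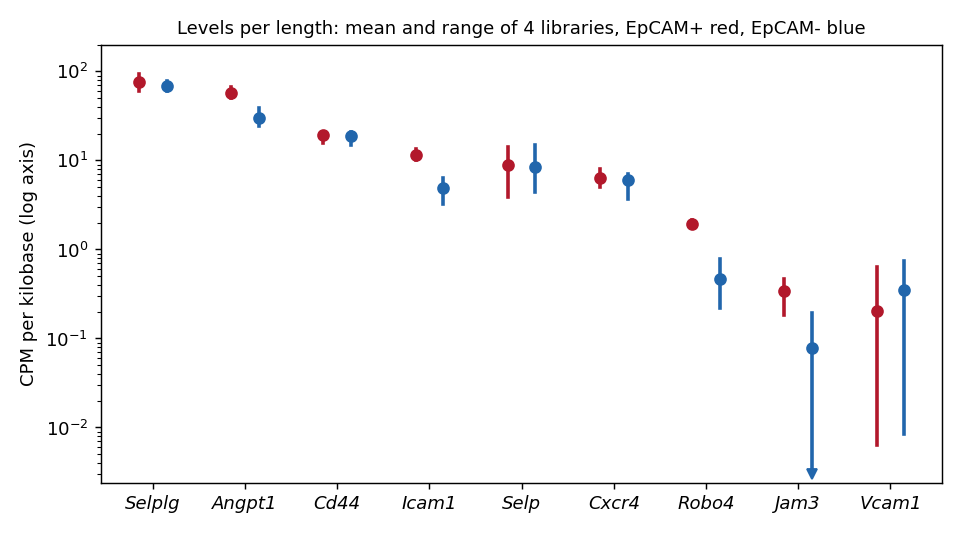
Level of each gene as CPM per kilobase (log axis), with the mean (point) and the range (line) of 4 EpCAM+ (red) and 4 EpCAM- (blue) libraries; the arrow marks a range that reaches 0. *Selplg*, *Angpt1* and *Cd44* are the highest of the 9 genes in both fractions.

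The genes whose centred log2 CPM was most like that of a member over the 8 libraries were found by the smallest root mean square difference. For *Angpt1* these were *Ddx60* (0.0480) and *Ltbp3* (0.0576), for *Icam1* *Pawr* (0.0996) and *Prss8* (0.108), and for *Robo4* *Il18* (0.179) and *Hspa12b* (0.202). *Selplg* was closest to *Snx20* (0.0497) and *Ifngr2* (0.0760), *Cxcr4* to *Dnajb1* (0.0882) and *Herpud1* (0.111), and *Cd44* to *Mxi1* (0.0651) and *Naa30* (0.0709). The nearest genes were farther from *Selp* (*Rsph1*, 0.280, and *Stxbp6*, 0.336) and from *Vcam1* (*Chil1*, 1.02, and *Cd177*, 1.04), the tested members with the widest spread within fractions.

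The other genes of these pathways were read from 8 lists of 135 genes. Of 99 tested, 34 were higher and 13 lower in EpCAM+ samples (47.5% called, against 42.6% of all tested genes), with a median log2 fold change of 0.18. Of the chemokine and lipid guidance genes, 5 of 14 tested were higher and 3 lower. *Cxcl12*, the ligand of CXCR4, had 0 to 2 counts in 7 libraries and 31 in EpCAM- replicate 4, and *Ackr3*, its scavenger receptor, had 0 or 1 count. *Cxcr2*, a chemokine receptor of neutrophils, was lower (3.80 against 15.6 CPM, log2 fold change -2.03, SE 0.36, adjusted p = 0.00170), and so was *Sphk1*, which makes sphingosine 1-phosphate (2.26 against 99.6 CPM, log2 fold change -5.48, SE 0.64, adjusted p = 0.000257). *Cxcr3*, a receptor for chemokines induced by interferon, was higher (32.4 against 0.517 CPM, log2 fold change 5.87, SE 0.91, adjusted p = 0.000932). Its counts of 878, 88, 285 and 790 in EpCAM+ replicates 1 to 4 had the order of *Xcr1*, a dendritic cell marker, with 2251, 202, 640 and 2018 counts. *Xcr1* was picked after its values were seen. The whole dendritic list had another order, with sums of 663, 407, 541 and 759 CPM in these libraries. The part of dendritic cells in the *Cxcr3* difference was not tested. Of the genes of CXCR4 signalling, 9 of 23 were higher and 1 lower. *Dock2*, an exchange factor for RAC (log2 fold change 0.61, adjusted p = 0.00158), *Prkcz*, an atypical protein kinase C (2.43, adjusted p = 0.00198), and *Rgs1*, which shortens signals of G protein-coupled receptors (1.68, adjusted p = 0.00348), were higher while the receptor itself was not called.

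Among selectins, their ligands and the enzymes that glycosylate them, 2 of 17 tested genes were higher and 3 lower. This balance changed with the fit: 4 were higher and 2 lower with upper-quartile scaling, 3 and 3 with library totals, and 5 and 5 with the replicate block. *Sele*, which encodes the endothelial selectin, had 0 to 7 counts. *B4galt1*, a galactosyltransferase, was lower (log2 fold change -0.42, adjusted p = 0.00443) and *Emcn*, which encodes the sialomucin endomucin, higher (1.89, adjusted p = 0.00305). In the hyaluronan list, 2 of 9 tested genes were higher and 3 lower, which became 3 higher and 1 lower with upper-quartile scaling and with library totals. The synthase genes *Has1* and *Has2* had no read in any library. *Spp1*, which encodes osteopontin, a ligand of CD44 and integrins, was higher (15.4 against 3.60 CPM, log2 fold change 2.08, SE 0.24, adjusted p = 0.00025). *Hyal2*, a hyaluronidase (log2 fold change -0.49, adjusted p = 0.00380), and *Rdx*, which encodes radixin, a cytoskeletal linker of CD44 (-0.25, adjusted p = 0.0103), were lower. The *Rdx* call was lost with upper-quartile scaling (adjusted p = 0.0583) and with library totals (adjusted p = 0.0716).

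Of the immunoglobulin superfamily relatives of ICAM-1, VCAM-1 and JAM-C, 7 of 13 tested were higher and 1 lower. *Jam2*, which encodes JAM-B, the partner of JAM-C, rose from 1.14 to 3.28 CPM (log2 fold change 1.50, SE 0.41, adjusted p = 0.0149). *F11r*, which encodes JAM-A, rose from 28.8 to 91.4 CPM (log2 fold change 1.66, SE 0.18, adjusted p = 0.000190), and *Alcam*, a ligand of CD6, from 6.22 to 19.7 CPM (1.66, SE 0.22, adjusted p = 0.000440). *Cadm1*, an adhesion molecule also used as a dendritic cell marker, rose from 0.375 to 27.8 CPM (log2 fold change 6.16, SE 0.84, adjusted p = 0.000508). Its 686, 84, 248 and 739 counts in EpCAM+ replicates 1 to 4 were, like those of *Xcr1* and the dendritic sum, lowest in replicate 2. The part of dendritic cells in the *Cadm1* difference was not tested. Of the integrin genes whose products bind these ligands, 8 were tested, and 1 was higher and 1 lower, with a median log2 fold change of 0.44 (0.55 for the relatives above). With the replicate number as a block 4 integrin genes were higher and 2 lower, with upper-quartile scaling 3 and 0, and with library totals 3 and 1. *Itga4*, the alpha chain of VLA-4, was lower (53.7 against 68.2 CPM, log2 fold change -0.34, SE 0.10, adjusted p = 0.0201), a call lost with upper-quartile scaling (adjusted p = 0.0551) and without EpCAM+ replicate 2 (adjusted p = 0.0528) or replicate 3 (adjusted p = 0.0589). *Itgb1*, its beta chain, gave 0.03 (SE 0.07, adjusted p = 0.744). *Itgax* (CD11c), which is on the dendritic cell list as well, was higher (2.33, SE 0.59, adjusted p = 0.0101). The chains of LFA-1, which binds ICAM-1, were called only with the replicate number as a block, DESeq2, other scaling or a library left out: *Itgal* at -0.49 (adjusted p = 0.0771; -0.53 and 0.00717 with the block) and *Itgb2* at 0.85 (adjusted p = 0.0637; 0.78 and 0.00170 with the block).

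In the Slit and Robo list, 4 of 7 tested genes were higher and none lower. *Slit2*, which encodes a Slit ligand, had 0 to 5 counts, and *Robo2* had no read. *Robo3*, a divergent Robo receptor (log2 fold change 0.87, SE 0.25, adjusted p = 0.0187), and the Robo-binding GTPase-activating proteins *Srgap3* (1.20, SE 0.27, adjusted p = 0.00519) and *Srgap1* (1.09, SE 0.34, adjusted p = 0.0274) were higher. The calls of *Robo3* and *Srgap1* were lost without EpCAM+ replicate 2 (adjusted p = 0.0564 and 0.0807), that of *Robo3* also without EpCAM+ replicate 3 (adjusted p = 0.0569), and that of *Srgap1* also without EpCAM+ replicate 1 (adjusted p = 0.0662), EpCAM- replicate 3 (adjusted p = 0.0697) or EpCAM- replicate 4 (adjusted p = 0.0604). In the angiopoietin list, 4 of 8 tested genes were higher and 1 lower, and both receptors of the family rose with *Angpt1*. *Tek*, which encodes TIE2, was higher (13.8 against 5.96 CPM, log2 fold change 1.21, SE 0.27, adjusted p = 0.00514), as was *Tie1*, its co-receptor (41.9 against 13.8 CPM, 1.60, SE 0.18, adjusted p = 0.000218). *Dok2*, an adaptor that binds TIE2, was higher (0.97, SE 0.10, adjusted p = 0.000182) and *Angptl4*, an inhibitor of lipoprotein lipase, lower (-0.96, SE 0.13, adjusted p = 0.000519). *Tie1* and *Emcn* are also on the endothelial list, which summed to 46.3 to 65.3 CPM in EpCAM+ and 27.5 to 36.7 CPM in EpCAM- libraries. Its defining genes *Cdh5*, *Cldn5*, *Sox17* and *Ptprb* had 0 to 3 counts in every library, and *Plvap*, the third tested gene of the list, was lower (-2.12, SE 0.24, adjusted p = 0.00025).

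**Figure D5:**
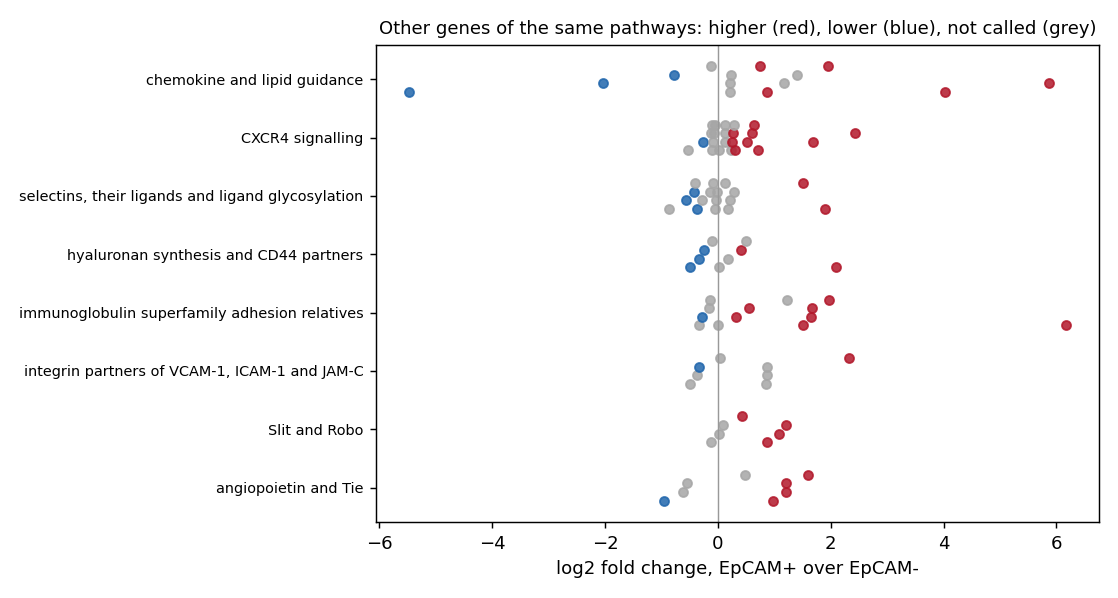
Log2 fold change (EpCAM+ over EpCAM-) of the 99 tested pathway genes by list, with 34 called higher in red, 13 called lower in blue and the rest in grey; vertical offsets only separate points. The selectin and hyaluronan lists hold calls in both directions, and all 4 calls of the Slit and Robo list are higher.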

How the data were processed

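RNA-Seq counts of 8 libraries (4 EpCAM+ and 4 EpCAM- *Zeb1*-/- LSK samples) were used. Total RNA was amplified with SMART-Seq v4, libraries were built from 1 ng of cDNA and sequenced as 150-bp paired ends. Per the submitters' processing notes, the authors aligned reads to GRCm38.p6 with STAR 2.6.1d and counted them per gene with featureCounts 1.5.0-p3; the deposited counts are not normalized. The annotation release, the use of strand and the treatment of multi-mapping reads are not given in the sources used here. The deposited FPKM, computed by the authors, served only for the lengths they imply. The log2 fold changes and p-values that the authors computed with DESeq2 1.20.0 were not used.

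Genes were kept by filterByExpr (edgeR 4.0.16, minimum count 10), scaled by TMM and tested with the quasi-likelihood test (two-sided, Benjamini-Hochberg) in R 4.3.3. Intervals are 95%, log2 CPM used a prior count of 2, and the floor for a count of 0 was 3 counts, for counting error only. Gene positions were those of the table, the same as in GENCODE M21 for all 9 genes. Members, lists and tests were chosen with earlier results of these data known. Text names all members, up to 3 called genes per pathway list by adjusted p, direct partners of members, the 2 protein-coding genes most like each tested member, and markers by list; the *Xcr1* comparison and *Robo2*, *Has1* and *Has2* were named after their values were seen. The result of 1 gene that this rule names is not given.

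The replicate numbers pair the samples: deviations from the fraction means correlated at 0.205 to 0.356 across genes in the 4 same-number pairs and at -0.216 to 0.0396 in the 12 others. What the numbers share is not given in the sources used here. The labels count 4 mice, but do not tie libraries to mice, so p-values measure the spread between these samples. The main test left the replicate numbers out, so its SEs and intervals include any spread that same-number samples share. No 2 libraries were duplicates. Alternatives were DESeq2 1.42.0, limma-trend 3.58.1, other scalings and filters, the replicate block, and each library left out. The procedure was also run on simulated data without a replicate effect, which cannot show how the main test behaves on libraries correlated by number.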

Additional observations from a re-analysis of the deposited data

How the results depend on the processing

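The calls of *Icam1*, *Robo4* and *Angpt1* held under all 16 alternatives tried: the log2 fold change stayed between 1.06 and 1.35 for *Icam1*, 1.80 and 2.40 for *Robo4* and 0.85 and 1.09 for *Angpt1* when each library was left out, and the highest adjusted p under any alternative was 0.00544. The members called numbered 3 or 4 throughout, *Jam3* being the fourth. *Cxcr4*, *Selp* and *Cd44* were not called under any of them, and the sign of their small differences was not stable: leaving out 1 library gave -0.13 to 0.14, -0.25 to 0.48 and -0.089 to 0.10, and DESeq2 gave *Cd44* -0.00306. With the replicate block 6818 of all genes and 61 pathway genes were called in place of 5779 and 47, and the call of no member changed (*Selp* 0.10, adjusted p = 0.618). Besides *Itgal* and *Itgb2*, no other call that the text states for a pathway partner changed under the block. Leaving out libraries gave 4662 to 6039 calls among all genes, 38 to 47 among pathway genes and 3 to 4 among members. Upper-quartile scaling and library totals moved the median log2 fold change of all genes to 0.11 in each case, from 0.02, and the split to 3642 higher and 2083 lower, and 3476 and 2066, in place of 2961 and 2818. Pathway calls were then 39 higher and 7 lower, and 38 and 9, and the median of the selectin list, -0.05, became 0.03 with each. Depth limits what can be said of *Jam3* and *Vcam1*, which had at most 23 and 106 counts in a library. Levels per kilobase depend on the lengths used, and for all 9 genes in both fractions the lengths implied by FPKM moved the mean by more than 1 SD.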

Other observations

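Some pathway genes were picked after their values were seen, for the size of their difference. *Esam*, an adhesion molecule of endothelium and stem cells, was 3.92 times as high in EpCAM+ as in EpCAM- samples, with 1727, 2724, 1652 and 1127 counts against 735, 377, 341 and 176 counts in replicates 1 to 4. The chemokine receptor genes *Ccr7* (log2 fold change 1.95, adjusted p = 0.00691) and *Ccr9* (4.03, adjusted p = 0.00306) were higher. *Ccr9* is on the dendritic cell list too, and its 76, 16, 38 and 75 counts in EpCAM+ replicates 1 to 4 were lowest in replicate 2, as were those of *Xcr1*. The part of dendritic cells in the *Ccr9* difference was not tested. *Dpp4*, a peptidase that inactivates CXCL12, was higher in every EpCAM+ library (83.6 against 45.8 CPM, log2 fold change 0.86, adjusted p = 0.00471). *Lpar6*, a receptor for lysophosphatidic acid, was also higher (0.75, adjusted p = 0.00202).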
